A study of Mus musculus with 16 samples.

Results

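The heat shock proteins and DnaJ co-chaperones were described across red gastrocnemius muscle and visceral fat of mice labelled as muscle-specific MyD88 knockouts and of mice labelled as Cre-controls. The members are the protein-coding genes of the count table whose symbols begin with Hspa, Hspb, Hspd, Hspe or Hsph and a digit, with Hsp90 or with Dnaj, and they number 72 of 55536 genes. They comprise 8 small heat shock protein genes, the HSP60 and HSP10 pair, 13 HSP70 genes, 1 HSP110 gene, 3 HSP90 genes, and 4, 13 and 28 DnaJ genes of classes A, B and C. Families follow the symbols, so Hspa4 and Hspa4l count as HSP70 genes and Hspb11 as a small heat shock protein gene. A further 14 matching names belong to pseudogenes and were not members. Per the labels, the knockout mice carry a conditional deletion of Myd88, the adaptor of most Toll-like receptors, in muscle (MusMyD88-/-), and the controls are Cre-Control mice. The labels name neither the promoter that drives Cre nor the deleted part of the gene nor the age of the mice. All mice were female, and both genotypes ran on wheels for 5 weeks and were then kept for 8 days in a small cage that restricts movement, so no group of sedentary or freely moving animals enters these comparisons. Each genotype had 4 mice (knockouts 139, 958, 960 and 29, controls 131, 137, 138 and 11), and muscle and fat of each mouse gave 16 libraries of total RNA depleted of ribosomal RNA.

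Chaperones hold unfolded proteins in solution, refold them or pass them to degradation. Small heat shock proteins bind unfolding clients without using ATP. HSP70 proteins bind and release clients through an ATP cycle that DnaJ proteins start, by delivering clients and stimulating the ATPase, and that nucleotide exchange factors such as HSP110 and the BAG proteins reset. HSP90 takes over a narrower set of clients, many of them kinases and steroid receptors, with co-chaperones of its own, and HSP60 with HSP10 forms the folding chamber of mitochondria. In skeletal muscle, chaperones maintain contractile proteins under mechanical load, and small heat shock proteins are abundant there. The heat shock factor HSF1 activates the inducible members through repeated GAA blocks called heat shock elements, and unfolded protein in the endoplasmic reticulum (ER) activates the ER members through the ER stress element.

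Both elements were searched for in promoter windows from RefSeq, on build GRCm38.p6, that reach from 250 bases before to 50 bases after a transcript's start, and 58 of the 72 members had a window. The heat shock element was taken as the blocks GAA, TTC and GAA with any 2 bases between neighbouring blocks, and the ER stress element as CCAAT, any 9 bases and CCACG, each on both strands. The heat shock element was in 6 of 75 member windows, 8.0%, against 0.603% of all 32851 windows, and the ER stress element was in 3 member windows, 4.0%, against 0.119%. Heat shock elements were found for Hspd1, Hspe1, Dnajb6 and Hsph1, the last inside the transcribed part, and ER stress elements for Hspa5, Hsp90b1 and Dnajc3. The 6 windows with a heat shock element thus belong to 4 members. Dnajb6 and Hsph1 each had 2 windows over the same match, and Hspd1 and Hspe1 hold the same stretch. The share of 8.0% is therefore one of windows and not of independent sites. Only exact matches were counted and 14 members had no window, so members not named here are not shown to lack these elements. The following stretches are shown because they carry these elements upstream of the members, whose levels in both tissues are given further on, and the capitals mark the matches. Hspe1 and Hspd1 are transcribed in opposite directions from the same stretch, chr1:55088019-55088116 (here on the plus strand, towards Hspe1), where 2 matches overlap. The other stretches are chr5:29735812-29735897 for Dnajb6 (plus strand), chr2:34771985-34772083 for Hspa5 (plus strand), chr14:118937787-118937885 for Dnajc3 (plus strand) and chr10:86705493-86705694 for Hsp90b1 (minus strand), which has 2 matches. A match is a description of the sequence and says nothing of whether a factor was bound.
Hspe1 and Hspd1: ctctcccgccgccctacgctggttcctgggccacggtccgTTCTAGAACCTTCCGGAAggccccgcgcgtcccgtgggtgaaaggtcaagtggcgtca
Dnajb6: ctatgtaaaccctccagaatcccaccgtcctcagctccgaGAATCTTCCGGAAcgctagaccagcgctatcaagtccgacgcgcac
Hspa5: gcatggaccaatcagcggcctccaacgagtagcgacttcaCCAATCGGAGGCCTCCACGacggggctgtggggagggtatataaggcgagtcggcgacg
Dnajc3: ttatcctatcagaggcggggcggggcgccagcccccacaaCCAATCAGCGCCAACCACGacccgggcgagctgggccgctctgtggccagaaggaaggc
Hsp90b1: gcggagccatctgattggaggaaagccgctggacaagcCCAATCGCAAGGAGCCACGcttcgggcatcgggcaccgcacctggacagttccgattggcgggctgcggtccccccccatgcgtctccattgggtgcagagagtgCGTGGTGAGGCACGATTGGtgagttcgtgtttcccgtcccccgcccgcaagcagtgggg

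Libraries held 15203806 to 21747345 counts in muscle and 13242243 to 19114782 in fat. Levels below are CPM, counts relative to the library total, scaled with TMM factors of 0.615 to 0.681 for muscle libraries and 1.34 to 1.89 for fat libraries. Myd88 itself was at 3.30, 3.04, 2.50 and 2.92 CPM in knockout muscle and at 3.32, 3.13, 5.21 and 4.46 CPM in control muscle, and the 2 genotypes overlapped (log2 fold change -0.47, SE 0.20, edgeR adjusted p = 0.949, exact permutation p = 0.0571). Since the deleted part is unnamed, a count over the whole gene may not check the deletion, and these counts do not show a loss of Myd88, so genotypes are given as labelled. Myd88 was at 9.67 to 11.4 CPM in knockout fat and at 9.67 to 11.7 CPM in control fat. Among fat libraries, that of control mouse 138 was unlike the others: its 7 smooth muscle markers summed to 11095 CPM against 307 to 704 CPM in the other 7 fat libraries, its 5 urothelium markers to 988 CPM against 7.57 to 20.5 CPM, and its 6 adipocyte markers to 2600 CPM against 12882 to 15489 CPM. Results that rest on fat are therefore given with and without it.

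Of the 72 members, 2 had no count in any library (Dnajb8 and Dnajc5g), and 2 others had under 10 counts in all (Dnajc5b with 1 and Hspb9 with 3). After the filter on low counts, 63 members were tested between genotypes in muscle, 64 in fat and 65 between tissues. Dnajc22 had 0 counts in the 8 muscle libraries and 23 counts in 5 of the fat libraries, Dnajb7 had 1 count in muscle and 38 in fat, and Dnajb3 had 7 in muscle and 50 in fat. None of these 3 was tested between tissues.

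Levels of different genes were set side by side only per kilobase of exon (CPM per kb). In muscle the highest was Hsp90ab1, the constitutive cytosolic HSP90, at 269.9 ± 42.5 CPM per kb (SD, n = 8), followed by Hspa8, the constitutive cytosolic HSP70, at 170.2 ± 21.3. Hspb8, a small heat shock protein that works with Bag3 in selective autophagy, was at 151 ± 16.1, Hspb6 (HSP20) at 148 ± 40.7 and Hspa9, the mitochondrial HSP70, at 142 ± 8.61. The ranges of Hspa8, Hspb8, Hspb6 and Hspa9 over the 8 libraries overlapped, and differences between these genes were not tested. Dnaja2 at 87.8 ± 5.86, Hspb7 at 80.0 ± 18.7 and Hspd1 (HSP60) at 65.5 ± 3.83 CPM per kb completed the first 8 in muscle.

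In fat Hsp90ab1 was again highest, at 135 ± 20.996 CPM per kb (SD, n = 8). It was followed by the ER chaperone Hsp90b1 (GRP94) at 82.5 ± 8.68, Hspa8 at 80.5 ± 8.34 and Hspa9 at 71.8 ± 12.5. The ranges of these followers overlapped, and differences between them were not tested. Hspa5 (BiP), the ER HSP70, was at 52.5 ± 9.64, Hspd1 at 52.4 ± 11.1, Hspb8 at 36.9 ± 5.597 and the inducible cytosolic Hsp90aa1 at 34.2 ± 3.53 CPM per kb. Summed per kb, the 8 small heat shock proteins made up 26.6 ± 1.66% of the members' total in muscle and 7.41 ± 2.10% in fat (6.68 ± 0.39% without mouse 138). HSP90 made up 18.3 ± 2.12% in muscle and 27.6 ± 1.76% in fat, and HSP70 23.5 ± 1.90% in muscle and 29.2 ± 1.86% in fat (SD, n = 8 each). With TMM scaling a lower share was not a lower level. The summed levels of HSP90 were then 329 ± 41.7 CPM per kb in muscle and 252 ± 19.6 in fat. Those of HSP70 were 420 ± 27.4 and 267 ± 25.2, and those of small heat shock proteins 476 ± 36.2 and 67.5 ± 18.6. These sums depend on the scaling, since TMM factors were lower for every muscle library than for every fat library. Sums with library size alone were not computed.

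Between tissues, 40 of the 65 members tested were called higher in muscle than in fat, 61.5% against 35.7% of all 17084 genes tested, and 17 were called lower, 26.2% against 44.0% (edgeR quasi-likelihood test, p adjusted over all genes by Benjamini-Hochberg, threshold 0.05). The split depended on the scaling. With library size alone in place of TMM, 13 were called higher and 41 lower (11.1% and 79.9% of all genes), while the median log2 fold change of all genes moved to -1.36, against -0.16 with TMM and -0.13 with the scaling of DESeq2 (RLE). The members' median was 0.57, 0.60 and -0.63 with TMM, RLE and library size, which is 0.73 above the median of all genes each time, and 47 of the 65 lay above that median with each scaling. The direction was called the same way with all 3 scalings for 13 members that were higher in muscle (11.1% of all genes were) and for 16 that were lower (43.2%). Library size placed every member lower by a similar step, so a call of lower could hardly be lost with it. The 16 are those called lower with RLE, and the 13 those called higher with library size. A step common to all genes also leaves the distance of 0.73 nearly unchanged, so neither is a separate check. For 16 members, 24.6% against 16.4% of all genes, TMM and library size gave opposite calls. Muscle and fat libraries did not overlap for 45 of the 65 members, 69.2% against 52.2% of all genes, with 33 higher (25.4% of all genes) and 12 lower (26.7%) in muscle. Without the fat library of mouse 138, 41 were called higher and 19 lower (37.5% and 44.7% of all genes). In bulk tissue, fewer cells of a type and less RNA per cell cannot be told apart.

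**Figure D1:**
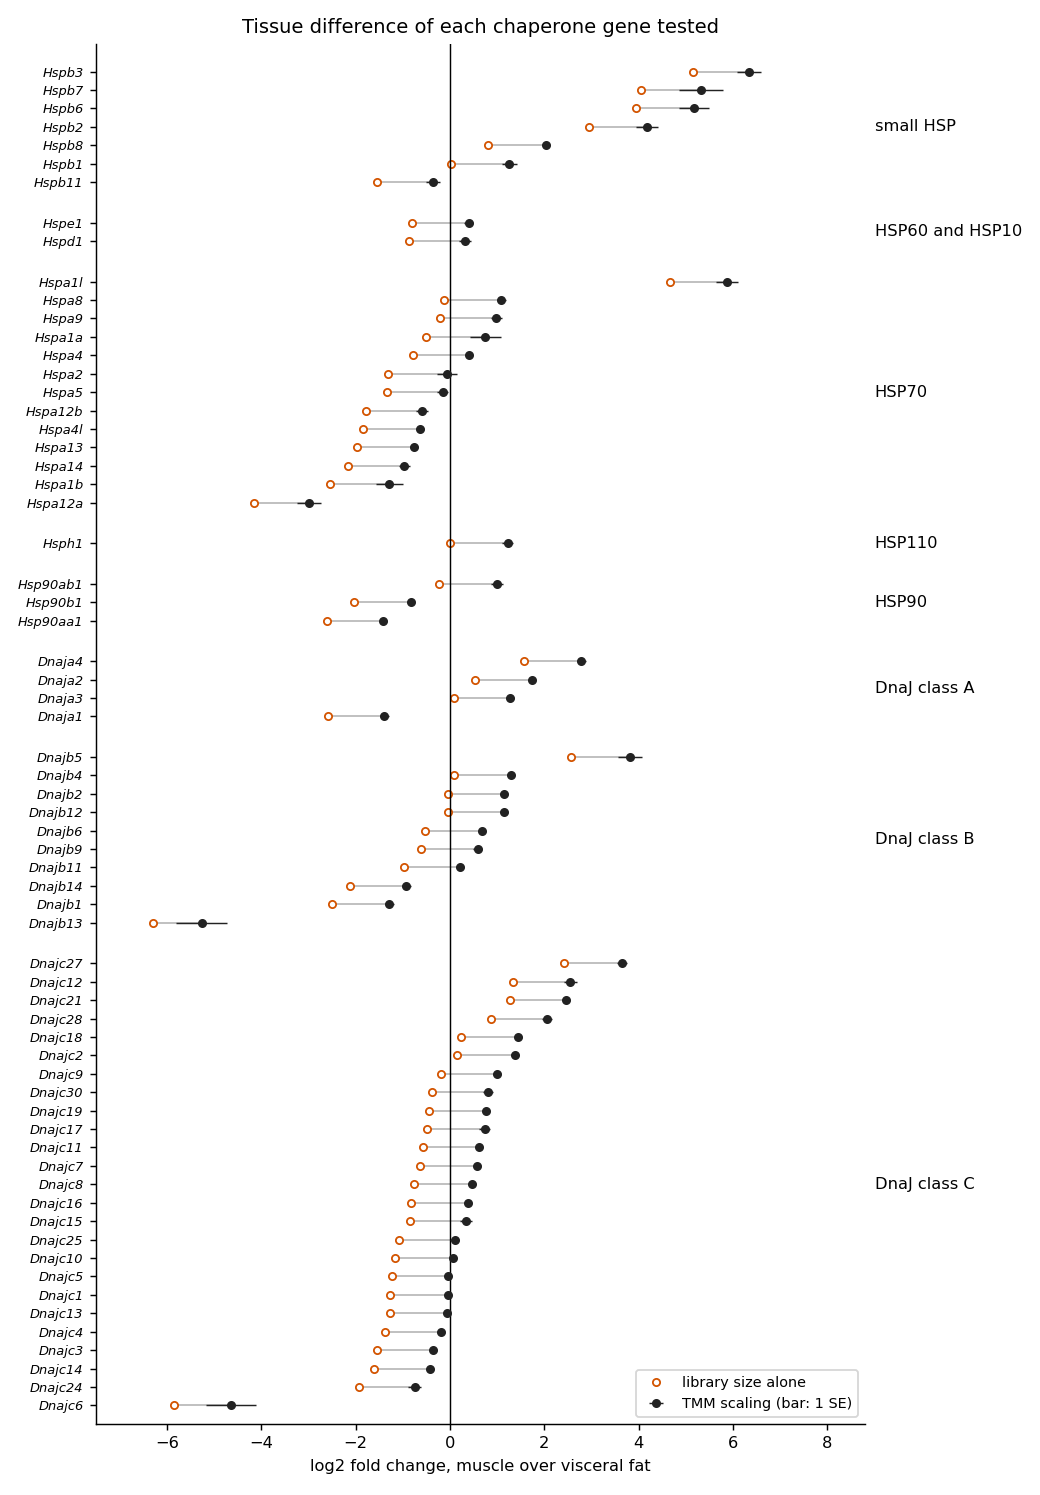
Log2 fold change of muscle over visceral fat (x axis) for the 65 members tested, grouped by family (y axis), with TMM scaling (filled, bars are 1 SE) and with library size alone (open). Small heat shock proteins reach from -0.35 for Hspb11 to 6.34 for Hspb3 with TMM, and library size places every member lower by a similar step.

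The small heat shock protein Hspb3 had the highest excess in muscle of the 65 members tested. Hspb3 (chr13:113662896-113663676, minus strand, GRCm38), which forms complexes with Hspb2, ranged from 11.1 through a median of 12.9 to 16.02 CPM in muscle and from 0 through 0.147 to 0.283 CPM in fat, a total of 1249 against 29 counts. Its groups were far apart (log2 fold change 6.34, SE 0.25, edgeR adjusted p = 3.46e-12). Hspb7, a cardiovascular and skeletal muscle form that binds filamin C, ranged from 156 through 205 to 316 CPM in muscle and from 1.87 through 3.91 to 22.5 CPM in fat (5.33, SE 0.47, adjusted p = 4.68e-08; 5.96 without mouse 138). The highest fat value was that of mouse 138, and the next was 5.53 CPM. Hspb6 ranged from 218 through 329 to 496 CPM in muscle and from 5.48 through 7.17 to 22.2 CPM in fat (5.18, SE 0.32, adjusted p = 6.39e-10). Mouse 138 was again highest in fat. Hspb2 ranged from 22.9 through 25.8 to 27.6 CPM in muscle and from 0.442 through 1.35 to 2.64 CPM in fat (4.17, SE 0.23, adjusted p = 2.03e-10).

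Hspb2 lies head to head with Cryab, another small heat shock protein gene. The annotation places 1030 bases of its gene span opposite Cryab, which had 42638 counts against 2760 for Hspb2. The strand setting of the counting is unstated, so reads of the 2 genes could not be told apart with certainty. Cryab was at 265 to 517 CPM in muscle and 21.1 to 83.0 CPM in fat. It was lowest in the fat of mouse 138, where Hspb2, Hspb6 and Hspb7 were highest.

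Hspb8 ranged from 248 through 302 to 332 CPM in muscle and from 56.8 through 70.01 to 95.0 CPM in fat, with no overlap (2.04, SE 0.09, adjusted p = 1.79e-11). These 5 were higher in muscle with each scaling. Hspb1 (HSP25), an actin-binding stress protein, ranged from 45.9 through 48.3 to 59.2 CPM in muscle and from 14.8 through 19.8 to 41.7 CPM in fat (1.26, SE 0.16, adjusted p = 3.02e-06), and its difference was 0.02 with library size alone. Of its 51-base stretches, 49.9% also occur in other genes, mainly the pseudogene Hsp25-ps1. Hspb11, which serves in intraflagellar transport rather than as a chaperone, was lower in muscle at 2.43 to 4.21 CPM than in fat at 2.68 to 4.56 CPM (-0.35, SE 0.15, adjusted p = 0.0419), with overlapping ranges. The call was lost under RLE (adjusted p = 0.0561) and without mouse 131, 137, 11, 958 or 960 (adjusted p = 0.0844 to 0.151).

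Skeletal muscle markers were also present in fat. Their sum over 5 genes ranged from 144 to 1170 CPM in the 8 fat libraries and from 66107 to 85925 CPM in muscle. The highest fat sum was that of knockout 139, whose Hspb6 was 11.1 CPM, the second highest in fat. The part of these markers in the fat levels of Hspb2, Hspb3, Hspb6 and Hspb7 was not tested.

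**Figure D2:**
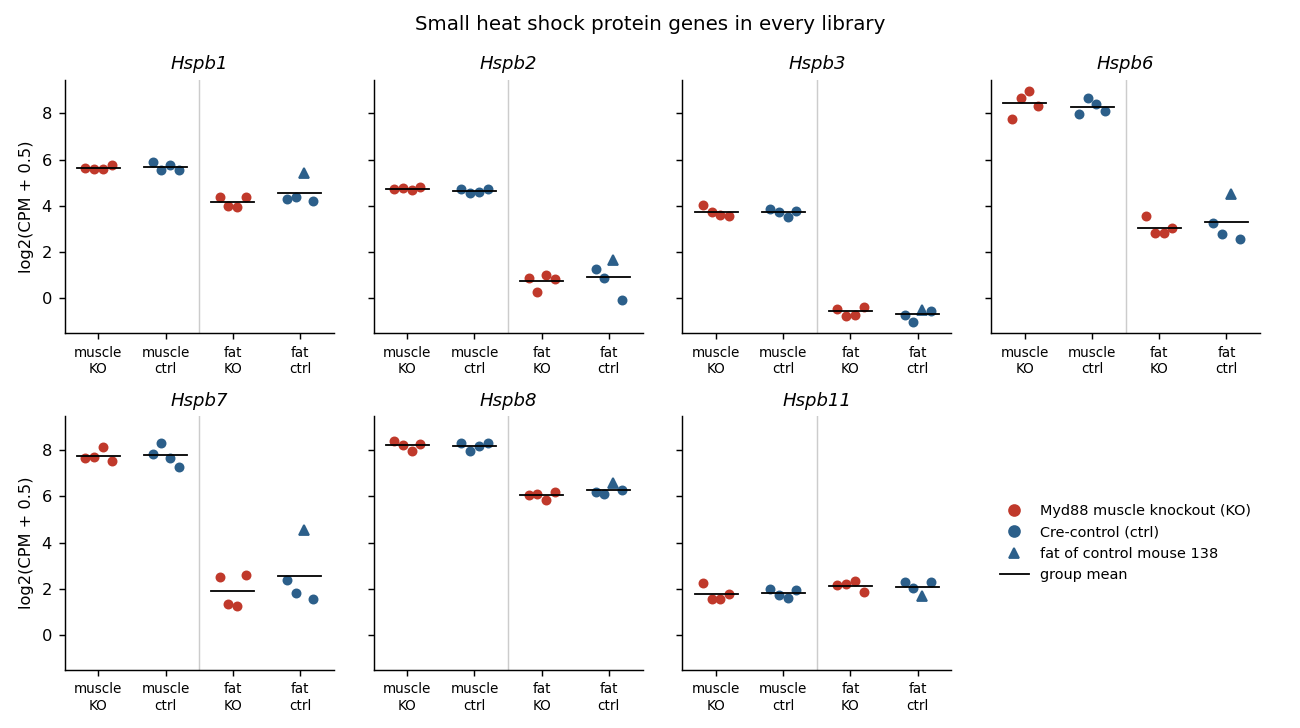
Levels of 7 small heat shock protein genes in every library as log2(CPM + 0.5) (y axis), by tissue and genotype (x axis, KO is knockout), with lines at group means and a triangle for the fat of mouse 138. Muscle lies above fat for Hspb1, Hspb2, Hspb3, Hspb6, Hspb7 and Hspb8, and the triangle is the highest fat value for all of these but Hspb3.

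The mitochondrial folding pair differed little between tissues. Hspd1 ranged from 155 through 176 to 189.6 CPM in muscle and from 69.1 through 145 to 164 CPM in fat, with an overlap, and the lowest fat value was that of mouse 138. Its log2 fold change was 0.32 (SE 0.13, adjusted p = 0.0354) with TMM and -0.86 with library size alone, and the call was lost with the mouse as a block (adjusted p = 0.0538) and without any of the 4 knockouts (adjusted p = 0.0617 to 0.0815). Hspe1 ranged from 36.1 through 37.7 to 46.0 CPM in muscle and from 21.6 through 30.7 to 35.7 CPM in fat (0.39, SE 0.09, adjusted p = 0.000935; -0.80 with library size). The count ratio of Hspd1 to Hspe1 in the same library, which no scaling touches, was 4.38 ± 0.48 in muscle and 4.54 ± 0.75 in fat (SD, n = 8 each). These genes share the promoter stretch shown above. Of the 51-base stretches of Hspd1, 41.6% also occur in other genes, mainly the pseudogene Hspd1-ps3, and 22.4% of those of Hspe1 do. Their levels and ratio are uncertain to that extent.

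Of the HSP70 genes, 5 of 13 were called higher and 6 lower in muscle, close to the shares of all genes called (35.7% and 44.0%), so the split is no result about this family. Hspa1l (chr17:34972703-34979285, plus strand, GRCm38), a constitutive cytosolic form best known from testis, ranged from 19.2 through 28.1 to 34.1 CPM in muscle and from 0.234 through 0.409 to 0.807 CPM in fat (5.87, SE 0.23, adjusted p = 3.95e-12). That is 2695 against 88 counts, but 71.4% of its 51-base stretches are also annotated to Gm10501, so its level is uncertain. Hspa8 ranged from 579 through 767 to 820.3 CPM in muscle and from 294 through 351 to 389.8 CPM in fat (1.08, SE 0.10, adjusted p = 3.49e-08). Hspa9 ranged from 543 through 605 to 661 CPM in muscle and from 183 through 325 to 354 CPM in fat (0.98, SE 0.11, adjusted p = 9.89e-07). With library size alone the differences were -0.13 for Hspa8, which was then not called, and -0.20 for Hspa9. Of the 51-base stretches of Hspa8, 39.1% also occur in other genes, mainly Gm15459.

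Hspa12a (chr19:58795750-58943654, minus strand, GRCm38), a distant HSP70 relative, was the HSP70 gene with the largest deficit in muscle. It ranged from 11.53 through 12.2 to 22.4 CPM in muscle and from 29.8 through 109 to 148 CPM in fat (-2.99, SE 0.26, adjusted p = 4.29e-08). The groups did not overlap, the lowest fat value was that of mouse 138, and the highest muscle value was that of knockout 960. Hspa5 was not called, at 179 to 241 CPM in muscle and 155 to 269 CPM in fat (-0.15, SE 0.11, adjusted p = 0.215), and was called lower without mouse 138 (-0.23, adjusted p = 0.0116). Hspa2, known for its role in sperm, was at 6.49 to 8.71 CPM in muscle and 5.30 to 22.8 CPM in fat (-0.06, SE 0.21, adjusted p = 0.787). Without mouse 138 the Hspa2 difference turned to 0.22 (adjusted p = 0.0174).

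The stress-inducible HSP70 pair was low in both tissues. Hspa1a ranged from 2.60 through 3.45 to 6.17 CPM in muscle and from 1.13 through 1.97 to 6.57 CPM in fat, which is 378 and 448 counts in all. Hspa1b ranged from 1.44 through 1.74 to 3.12 CPM in muscle and from 2.42 through 4.14 to 14.5 CPM in fat, which is 202 and 993 counts. Hspa1b was lower in muscle with each scaling (-1.28, SE 0.29, adjusted p = 0.000833), whereas Hspa1a was higher with TMM (0.75, SE 0.33, adjusted p = 0.0467) and lay at -0.51 with library size. The call of Hspa1a was lost without any mouse but 138 (adjusted p = 0.0640 to 0.121). Both fat maxima were those of mouse 138, and 58.6% of the 51-base stretches of Hspa1a also occur in Hspa1b, so the division of reads between them is uncertain.

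Exchange factors of HSP70 also differed. Hsph1 (HSP110) ranged from 33.3 through 37.7 to 47.5 CPM in muscle and from 11.8 through 16.6 to 20.6 CPM in fat (1.221, SE 0.12, adjusted p = 1e-07), and the difference lay at 0.01 with library size. Hspa4l, of the same group of exchange factors despite its name, was lower in muscle with each scaling, at 16.05 through 24.45 to 28.1 CPM against 31.6 through 35.7 to 41.3 CPM in fat (-0.64, SE 0.08, adjusted p = 2.29e-06). Hspa4, also of that group, was called higher in muscle with TMM (0.41, SE 0.07, edgeR adjusted p = 3.08e-05) and lower with library size (-0.79).

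The cytosolic HSP90 genes went in opposite directions with TMM. Hsp90aa1 (chr12:110690605-110702728, minus strand, GRCm38) ranged from 45.1 through 49.5 to 58.1 CPM in muscle and from 117 through 132 to 159.8 CPM in fat, with no overlap (-1.41, SE 0.07, adjusted p = 3.41e-11). Hsp90ab1 ranged from 526 through 841 to 958 CPM in muscle and from 346 through 391.7 to 539.8 CPM in fat (0.995, SE 0.12, adjusted p = 1.88e-06; -0.23, not called, with library size). The ranges overlapped through knockout 139 in muscle and mouse 138 in fat. Hsp90b1, the ER form, was lower in muscle with each scaling, at 176 through 189 to 193 CPM against 260.2 through 349 to 364 CPM in fat (-0.83, SE 0.07, adjusted p = 3.25e-08).

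A ratio of counts within a library does not depend on the scaling. Ratios of 6 pairs were chosen after their values were seen. The gene named first in a pair sets the direction of its ratio, so directions are not compared across pairs. Hsp90aa1 to Hsp90ab1 was at 0.051 to 0.111 in muscle and 0.229 to 0.412 in fat. Dnaja1 to Dnaja2, a pair of class A co-chaperones, was at 0.063 to 0.110 in muscle and 0.505 to 0.901 in fat. Hspa1b to Hspa1a was at 0.286 to 0.868 in muscle and 1.69 to 2.96 in fat. In these 3 pairs each muscle library lay below each fat library, that of mouse 138 included. As named, Hspb6 to Hspb8 was higher in muscle, at 0.656 to 2.00 against 0.072 to 0.234 in fat. So was Hspa5 to Hsp90b1, at 0.985 to 1.28 in muscle and 0.560 to 0.771 in fat. In these 2 pairs each muscle library lay above each fat library, and Hspd1 to Hspe1, given above, overlapped. Such ratios show unequal change and not which gene of a pair changed. They carry no correction for length. Of the 51-base stretches of Hsp90aa1, 41.6% also occur in Gm12346, and 20.5% of those of Dnaja1 occur in other genes.

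**Figure D3:**
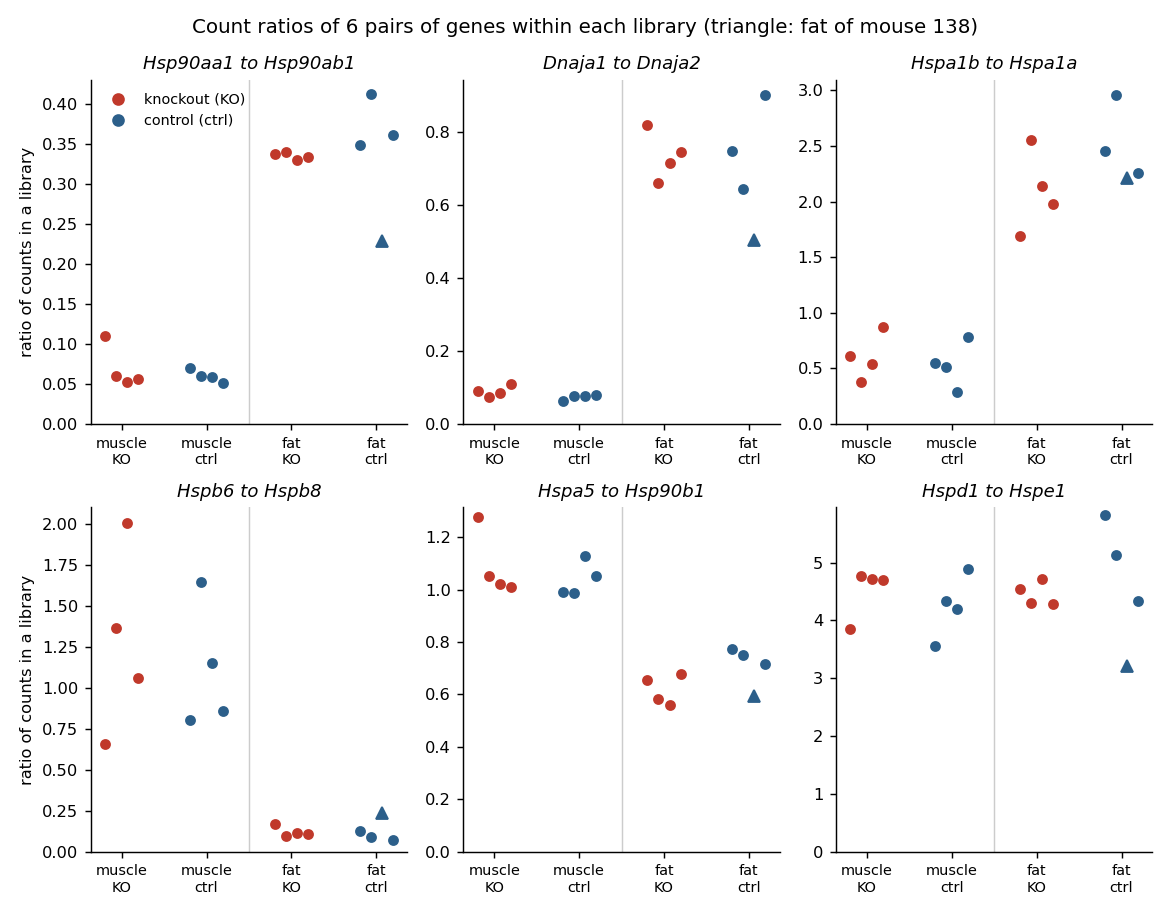
Count ratio of 6 pairs of genes in each library (y axis) by tissue and genotype (x axis, KO is knockout), with a triangle for the fat of mouse 138. Muscle libraries lie below fat libraries in the upper 3 pairs, above them for Hspb6 to Hspb8 and Hspa5 to Hsp90b1, and overlap them for Hspd1 to Hspe1, and knockout 139 has the highest muscle ratio of Hsp90aa1 to Hsp90ab1 at 0.111.

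Among the class A DnaJ genes, Dnaja4 ranged from 51.8 through 59.0 to 76.1 CPM in muscle and from 7.67 through 8.60 to 10.3 CPM in fat (2.78, SE 0.10, adjusted p = 9.45e-13). Its gene span overlaps that of Wdr61 on the opposite strand by 1581 bases, and 42.7% of its 51-base stretches also occur in Wdr61. Dnaja2 ranged from 246 through 256 to 298 CPM in muscle and from 72.4 through 77.6 to 84.4 CPM in fat (1.74, SE 0.06, adjusted p = 4.82e-13). Dnaja1 went the other way, from 18.7 through 20.7 to 27.2 CPM in muscle and from 42.6 through 56.7 to 67.4 CPM in fat (-1.40, SE 0.09, adjusted p = 1.43e-09). All 3 held with each scaling.

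In class B, Dnajb5 showed the largest excess in muscle, at 75.4 through 121 to 186 CPM, against 6.27 through 7.14 to 18.8 CPM in fat (3.82, SE 0.25, adjusted p = 1.41e-09; 4.08 without mouse 138). Dnajb5 is known in heart to bind the class II deacetylase HDAC4. Dnajb4 ranged from 98.6 through 109 to 138 CPM in muscle and from 40.6 through 44.7 to 51.1 CPM in fat (1.28, SE 0.08, adjusted p = 4.51e-10; 0.08 with library size). Dnajb1 (chr8:83608193-83612653, plus strand, GRCm38), the heat-inducible HSP40, was lower in muscle with each scaling, at 5.66 through 6.20 to 8.22 CPM against 12.8 through 15.98 to 19.9 CPM in fat (-1.29, SE 0.10, adjusted p = 7.33e-09). Dnajb6, a suppressor of polyglutamine aggregation whose upstream stretch is shown above, ranged from 35.6 through 39.2 to 42.05 CPM in muscle and from 21.8 through 24.4 to 26.6 CPM in fat, with no overlap (0.68, SE 0.05, adjusted p = 4.2e-09; -0.53 with library size). Of its 51-base stretches, 20.9% also occur in other genes. The ER membrane form Dnajb14 was at 27.3 through 31.9 to 34.6 CPM in muscle and 41.1 through 63.3 to 67.4 CPM in fat (-0.93, SE 0.09, adjusted p = 1.37e-07). Dnajb13, known from the sperm flagellum, had 5 counts in muscle and 354 in fat. It overlaps Ucp2 on the opposite strand by 305 bases, and Ucp2 had 11145 counts against 359 for Dnajb13.

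In class C, 15 of 25 tested members were called higher and 4 lower, beside 35.7% and 44.0% of all genes, and 9 were called in opposite directions with TMM and library size, beside 16.4% of all genes. Dnajc27, a protein with a Rab-like GTPase domain, ranged from 89.4 through 99.0 to 105 CPM in muscle and from 6.24 through 7.52 to 10.7 CPM in fat (3.64, SE 0.11, adjusted p = 1.43e-13). Dnajc12, a co-chaperone of aromatic amino acid hydroxylases, ranged from 8.98 through 11.1 to 13.3 CPM in muscle and from 1.48 through 1.82 to 2.36 CPM in fat (2.55, SE 0.13, adjusted p = 6.11e-11). Dnajc21, which acts in maturation of the large ribosomal subunit, was at 116 through 124 to 157 CPM in muscle and 19.8 through 23.2 to 27.2 CPM in fat (2.47, SE 0.08, adjusted p = 3.56e-13). These 3 were higher in muscle with each scaling.

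Dnajc6, auxilin, which uncoats clathrin vesicles in neurons, had 18 counts in muscle and 609 in fat, with a range of 1.21 through 2.44 to 9.37 CPM in fat. The fitted log2 fold change was -4.64 (SE 0.53, adjusted p = 7.65e-07), and it depends on the prior count because 2 muscle libraries had none. Gak, its widely expressed relative, was at 27.7 to 32.2 CPM in muscle and 61.7 to 71.4 CPM in fat. Dnajc24, which acts in diphthamide synthesis, was lower in muscle at 2.92 to 5.03 CPM than in fat at 4.09 to 7.41 CPM (-0.75, SE 0.14, adjusted p = 0.000143), with an overlap through the fat of mouse 138. Dnajc3, an ER co-chaperone of BiP whose upstream stretch is shown above, was lower in muscle with each scaling, at 68.1 through 79.2 to 92.5 CPM against 86.9 through 101 to 115 CPM in fat (-0.35, SE 0.07, adjusted p = 0.000312). It too overlapped through the fat of mouse 138.

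Of the other chaperone genes, grouped by role, 9 of 12 HSP70 co-chaperones, 14 of 16 HSP90 co-chaperones, 7 of 8 tested subunits of the cytosolic chaperonin CCT and 6 of 6 prefoldin subunits were called higher in muscle with TMM, beside 3, 2, 1 and 0 called lower (35.7% of all genes were called higher and 44.0% lower). Relatives of the members under other names, such as Cryab and Gak, split into 4 higher and 3 lower of 7 tested. Median log2 fold changes of these 5 lists were 0.55, 1.07, 0.52, 1.05 and 0.47, beside -0.16 over all genes. With library size alone the medians turned to -0.64, -0.13, -0.69, -0.15 and -0.71, beside -1.36 over all genes. Then 1, 3, 0, 2 and 2 genes were called higher and 10, 6, 8, 2 and 5 lower (11.1% and 79.9% of all genes). Hsf1, the main regulator of the heat shock response, was at 26.5 to 36.6 CPM in muscle and 13.8 to 18.6 CPM in fat. Hsf2 was at 40.8 to 56.3 CPM in muscle and 13.1 to 15.4 CPM in fat. Of the 4 genes tested on the list of heat shock factors, 3 were called higher and 0 lower with TMM. With library size alone 1 was called higher and 1 lower, and the median of the list moved from 1.21 to -0.0004. Bag3, the partner of Hspb8, was at 68.7 to 93.9 CPM in muscle and 16.9 to 23.2 CPM in fat.

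The next comparison asked whether chaperone levels in muscle, the targeted tissue, differed between mice labelled knockout and control. In muscle 0 of 63 members were called between knockouts and controls, with 0.0141% of all 14183 genes called (edgeR). None had an unadjusted p under 0.05, against 5.04% of all genes, and DESeq2 and limma voom, which called 0.0705% and 0.0141% of all genes, also called 0 members. The groups overlapped for all 63, whereas 3.12% of all genes had groups that did not overlap. The members' median log2 fold change was -0.01 and that of all genes 0.00.

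The smallest p in muscle was that of Hspa4l, at 24.2, 28.1, 25.2 and 24.8 CPM in knockouts and at 16.05, 22.8, 21.6 and 24.7 CPM in controls. Only the control of mouse 11 reached into the knockout range (log2 fold change 0.25, SE 0.12, unadjusted p = 0.0543, adjusted p = 0.949, exact permutation p = 0.0571). Hspa12a was at 12.9, 12.2, 22.4 and 12.2 CPM in knockouts and at 11.9, 12.4, 11.6 and 11.53 CPM in controls, so that a single knockout stood out (0.33, SE 0.19, adjusted p = 0.949). Dnajc21 was at 128, 116, 123 and 123 CPM in knockouts and at 140.1, 157, 123 and 124 CPM in controls (-0.16, SE 0.09, adjusted p = 0.949). Dnaja1 at 0.17 (SE 0.11), Dnaja2 at -0.11 (SE 0.08) and Dnajc9, a histone co-chaperone, at -0.16 (SE 0.12) had the next smallest p, with adjusted p = 0.949 for each.

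The abundant muscle chaperones overlapped between genotypes as well. Hspb6 was at 218, 411, 496 and 322 CPM in knockouts and at 254, 408, 335 and 272 CPM in controls. Hsp90ab1 was at 526, 859, 856 and 882 CPM in knockouts and at 792, 827, 775 and 958 CPM in controls, with knockout 139 far below the rest. Hspa8 was at 820.3, 748, 609 and 716 CPM in knockouts and at 798, 579, 787 and 799.8 CPM in controls. With 4 mice against 4, the smallest exact permutation p is 0.0286.

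In fat, which per the labels was not the targeted tissue, 0 of 64 members were called (0.00613% of 16323 genes were, edgeR), 2 had an unadjusted p under 0.05 (3.12% against 7.99% of all genes, both lower, against 4.1%), and DESeq2 and limma voom, which called 0.441% and 0.0% of all genes, also called 0 members. Dnajb1 had the smallest p, at 14.9, 12.8, 15.7 and 14.9 CPM in knockouts and at 17.6, 19.7, 19.9 and 16.2 CPM in controls. Every knockout lay below every control (-0.34, SE 0.11, unadjusted p = 0.0126, adjusted p = 0.588, exact permutation p = 0.0286, the smallest possible). Groups did not overlap for 5 of the 64 members, 7.81% against 6.35% of all genes: Dnajb1, Hspa2 and Hspa8 were lower in all knockouts (4.69% against 2.9%), and Dnajc30 and Dnajc28 higher (3.12% against 3.44%).

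Hspa2 was at 5.97, 6.29, 5.30 and 6.38 CPM in knockout fat and at 7.90, 8.24, 22.8 and 7.29 CPM in control fat, with the value of mouse 138 far above the rest (-0.96, SE 0.38, adjusted p = 0.619; -0.38, SE 0.11, adjusted p = 0.191 without it). Hspa1b was at 4.05, 3.55, 2.42 and 4.24 CPM in knockouts and at 4.40, 3.54, 14.5 and 4.99 CPM in controls (-0.97, SE 0.47, adjusted p = 0.627). Hspb8 was at 66.2, 68.4, 56.8 and 71.5 CPM in knockouts and at 72.9, 68.5, 95.0 and 76.1 CPM in controls (-0.26, SE 0.13, adjusted p = 0.630). In each of these genes the highest control was mouse 138.

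Dnajc30, a mitochondrial protein linked in humans to repair of respiratory complex I, was at 8.70, 8.21, 8.26 and 8.28 CPM in knockout fat and at 7.67, 6.90, 5.09 and 7.95 CPM in control fat (0.27, SE 0.14, adjusted p = 0.630). Its gene span overlaps that of Bud23 on the opposite strand by 758 bases, and 24.0% of its 51-base stretches also occur in Bud23. Dnajc28 was at 12.1, 13.6, 12.7 and 12.8 CPM in knockouts and at 11.95, 10.8, 6.97 and 11.7 CPM in controls (0.30, SE 0.16, adjusted p = 0.637). Here mouse 138 was the lowest control.

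**Figure D4:**
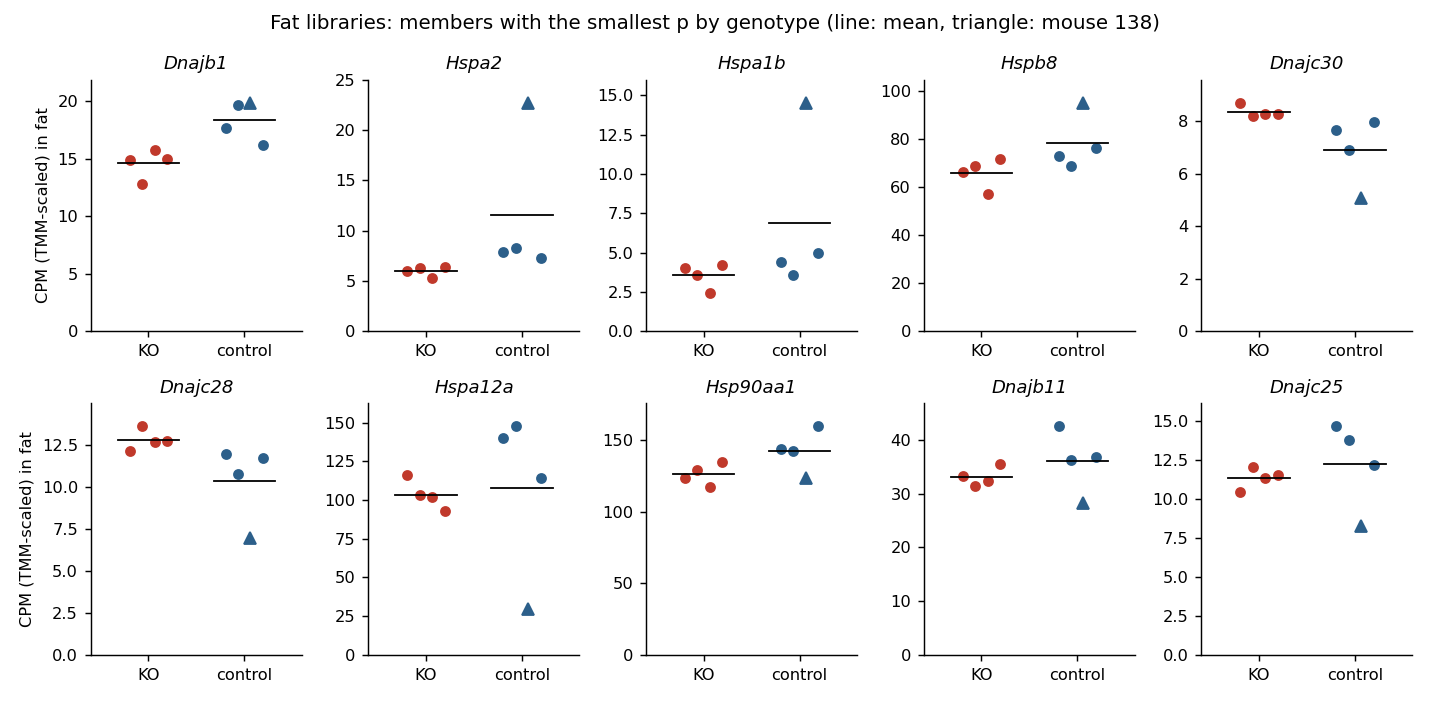
TMM-scaled CPM (y axis) of the 10 members with the smallest p by genotype in fat, with all mice or without mouse 138, in knockout (KO, left) and control libraries (right); lines are means and triangles mouse 138. The triangle lies farthest from the other controls for Hspa2, Hspa1b and Hspa12a, and Dnajb1 shows 4 knockouts below 4 controls.

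Without mouse 138, 0 of 64 members were called in fat (0.0362% of 16579 genes were), with 0 members by DESeq2 and limma voom, which called 2.04% and 0.0302% of all genes. An unadjusted p under 0.05 was found for 9 members, 14.1% against 16.6% of all genes, and all 9 were lower in knockouts, 14.1% against 8.72%. Groups did not overlap for 14 members, 21.9% against 15.9% of all genes, of which 11 were lower in knockouts (17.2% against 8.46%) and 3 higher (4.69% against 7.44%). The members' median was -0.05, and that of all genes lay at 0.01.

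Hspa12a then had the smallest p, at 116, 103, 102 and 93.2 CPM in knockouts and at 140.1, 148 and 114 CPM in the controls 131, 137 and 11 (-0.37, SE 0.10, unadjusted p = 0.00567, adjusted p = 0.183). Knockout 139 and control 11 overlapped, and in mouse 138 the level was 29.8 CPM. Hsp90aa1 was at 124, 129, 117 and 135 CPM in knockouts and at 144, 143 and 159.8 CPM in the 3 controls, with no overlap (-0.23, SE 0.08, adjusted p = 0.223). Dnajb1 kept its direction (-0.29, SE 0.10, adjusted p = 0.229). Dnajb11, the ER co-chaperone of BiP, was at 33.3, 31.4, 32.4 and 35.6 CPM in knockouts and at 42.5, 36.3 and 36.8 CPM in controls (-0.22, SE 0.08, adjusted p = 0.243). Dnajc25 was at 10.49, 12.04, 11.4 and 11.55 CPM in knockouts and at 14.7, 13.8 and 12.2 CPM in controls (-0.25, SE 0.10, adjusted p = 0.245).

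Beside these 5 and Hspa2, the 9 held Hspa14, Dnajc14 and the ER chaperone Hspa5, with adjusted p of 0.271, 0.276 and 0.281. Hspa5 was at 229, 209, 172 and 239 CPM in knockout fat and at 269, 242 and 261 CPM in the 3 controls, and at 155 CPM in mouse 138. The adipocyte markers summed to 12882 to 13832 CPM in the knockouts and to 13185 to 15489 CPM in the 3 controls. Their part in these differences was not tested.

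Genotype effects were also compared between tissues, by an interaction over all 16 libraries. It called 0 of 65 members (0.0% of 17084 genes were called by edgeR), 3 had an unadjusted p under 0.05 (4.62% against 7.19%), and DESeq2 called 0 members and 0.0644% of all genes. The 3 were Dnajc6 (3.31, SE 1.217, on few counts in muscle), Hspa2 (1.07, SE 0.42) and Hspa1b (1.31, SE 0.58), with adjusted p of 0.653 to 0.685. Without the fat library of mouse 138 the interaction also called 0 of 65 (0.0172% of 17489 genes were), with 7 at an unadjusted p under 0.05 (10.8% against 11.1%), and Hspa2 was at 0.50 (SE 0.16, adjusted p = 0.286).

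Heat shock factors and co-chaperones were not called by genotype in either tissue. Hsf1 did not overlap in fat without mouse 138, at 17.2, 16.1, 16.8 and 16.6 CPM in knockouts and at 13.8, 14.7 and 13.8 CPM in controls (0.24, SE 0.07, adjusted p = 0.193), while mouse 138 was at 18.6 CPM. Fkbp5, a glucocorticoid-responsive HSP90 co-chaperone, had the smallest p of these lists in muscle, at 70.7, 50.9, 78.7 and 50.6 CPM in knockouts and at 80.0, 94.8, 115 and 78.3 CPM in controls (-0.56, SE 0.17, adjusted p = 0.907). Unc45b, the myosin chaperone of striated muscle, had the smallest p of these lists in fat, at 10.6, 5.37, 6.94 and 6.42 CPM in knockouts and at 4.63, 4.51, 4.77 and 4.64 CPM in controls (0.65, SE 0.20, adjusted p = 0.588). The skeletal muscle markers summed to 1170, 393, 144 and 775 CPM in the same knockout libraries and to 439, 263, 785 and 388 CPM in the controls, and their part in the Unc45b difference was not tested. Cct3, a subunit of CCT, was at 56.6, 52.5, 51.1 and 59.99 CPM in knockout fat and at 66.4, 62.9, 61.0 and 67.7 CPM in control fat (-0.23, SE 0.08, adjusted p = 0.591).

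The fat library of mouse 138 lay outside the range of the other 7 fat libraries for 54 of 65 members with at least 50 counts in fat, above them for 24 and below them for 30. That is 83.1% of the members, against 65.6% of the 16323 genes tested. Of those genes, 4942 lay above the other 7 fat libraries and 5763 below them. Each other fat library lay outside for 9.23% to 30.8% of the members and for 13.2% to 25.5% of the genes tested. The sets were chosen differently, the members by this minimum of 50 counts and all genes by the filter on low counts used for testing. Highest above were Hspb7 at 22.5 CPM against a median of 3.04 in the others, Dnajc6 at 9.37 against 2.18, Hspa2 at 22.8 against 6.38, Hspa1b at 14.5 against 4.05, Hspb6 at 22.2 against 6.67 and Hspa1a at 6.57 against 1.79. Farthest below were Hspa12a at 29.8 CPM against 114, Dnajb13 at 0.561 against 2.08, Hspd1 at 69.1 against 147 and Dnajc15, a mitochondrial import co-chaperone, at 21.4 against 45.0. Hspa9, another mitochondrial chaperone, was at 183 CPM against 332. Immediate early genes summed to 641 CPM in this library and to 209 to 313 CPM in the other fat libraries, beside the smooth muscle and adipocyte marker sums given above. Their part in these levels was not tested.

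**Figure D5:**
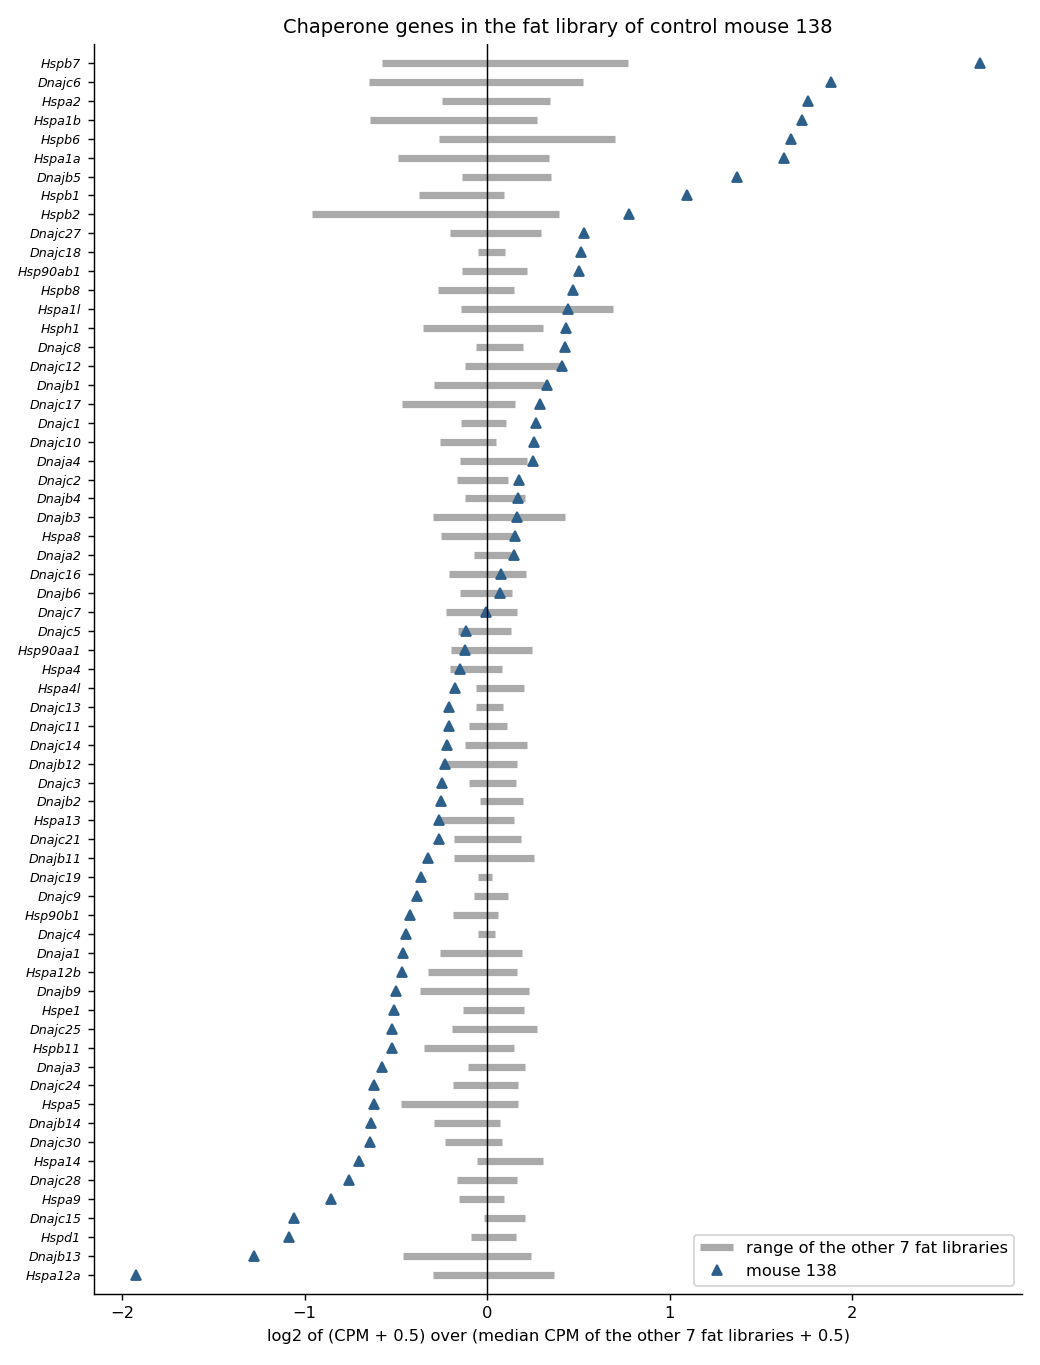
Level of 65 members in the fat library of control mouse 138 (triangles) relative to the median of the other 7 fat libraries, on a log2 scale of CPM + 0.5 (x axis), with the range of those 7 as grey bars and members sorted along the y axis. The triangles run from -1.92 for Hspa12a to 2.702 for Hspb7, and 54 lie outside the bars.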

How the data were processed

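RNA of 16 libraries from 8 mice (4 groups of 4) was measured by stranded total RNA sequencing after depletion of ribosomal RNA. The authors deposited whole-number read counts per Ensembl gene. STAR 2.7.0f, featureCounts 1.6.3, DESeq2 1.22.2 and build GRCm38 are named in the submitters' processing notes, with no role or order; the annotation release, the strand setting and the handling of reads with several matches are unstated. Symbols, gene types, exon lengths and coordinates came from GENCODE M21 on GRCm38, which held all 55536 identifiers.

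Counts were scaled with TMM factors and tested with edgeR's quasi-likelihood test (edgeR 4.0.16 in R 4.3.3) on all genes that passed its filter on low counts, and p-values were adjusted over all genes tested by the Benjamini-Hochberg method, with a threshold of 0.05. Genotypes were compared within a tissue over 8 libraries, and tissues and the interaction over 16. Each standard error is the size of the log2 fold change over the root of its F statistic. Exact permutation tests were two-sided on log2(CPM + 0.5), with 70 assignments for 4 against 4 mice and 35 for 4 against 3, and a smallest p of 0.0286 for both. The labels do not say whether mice shared litters or batches, and the p-values measure the spread between these mice. The tests were tried on simulated data before use.

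Alternatives were RLE scaling, library size alone, other filters on low counts, DESeq2 1.42.0, limma voom (limma 3.58.1), the mouse as a block, and each mouse left out. A shared mouse number was taken as the same animal in both tissues. Deviations from group means correlated between the tissues of a mouse at -0.02 to 0.04 in controls and 0.10 to 0.17 in knockouts over 17084 genes. No libraries of a group were alike within sampling noise.

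The members and the gene lists were chosen with earlier results of these data known. Genes named in full were the 6 with the smallest p in each genotype comparison, the 2 of each family with the largest tissue difference in each direction at a mean of at least 1 CPM, the 8 with the highest level per kilobase in each tissue, and 16 well known members. Hspb2, Dnajb6, Dnajb13, Dnajc3, Dnajc14, Dnajc15, Hspa4, Hspa14, the count ratios and the regulators were chosen after their values were seen. Precision is limited by 4 mice per group, and genes under 10 counts carry no comparison. Protein sequences were not analysed here.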

Additional observations from a re-analysis of the deposited data

Results flagged for a closer look

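In groups of 4 mice, a library was singled out where its gap to the nearest other library divided by the group's range exceeded Dixon's critical value, which chance gives in about 1 of 20 groups. This held for 18 of 148 groups of 4 examined, and 10 of the 18 were the fat library of control mouse 138. Examined were the groups of the members named in full that held at least 20 counts. Some of these members were chosen by their p in fat with or without mouse 138, so these are not shares over all members.

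In that library Hspa2 (22.8 CPM), Hspb7 (22.5), Hspb1 (41.7), Hspa1b (14.5), Dnajb5 (18.8), Dnajc6 (9.37) and Dnajc27 (10.7) lay above the other 3 control fat libraries. Hspd1 (69.1 CPM), Dnajb14 (41.1) and Dnajc9 (7.89) lay below them.

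In muscle, knockout 139 stood apart from the other 3 knockouts with a low Hsp90ab1 (526 CPM) and a high Dnajb4 (138) and Hspe1 (46.0). Knockout 960 had a high Hspa12a (22.4 CPM), knockout 29 a low Hspd1 (170.0, against 176 to 177 in the other 3), and control 137 a low Hspa8 (579). In fat, knockout 139 had a high Dnajc30 (8.70 CPM) and knockout 960 a low Hsp90b1 (307).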

How the results depend on the processing

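Counts of members called by genotype or by interaction were 0 under every alternative run. With each mouse left out in turn, 37 to 41 members were called higher and 16 to 19 lower in muscle than in fat, and 0 to 0 by genotype or interaction. Library size alone moved the counts to 13 higher and 41 lower. It also turned the tissue differences of Dnajb11 to -0.97, Dnajc25 to -1.09, Dnajc30 to -0.38, Dnajc9 to -0.20, Hsp90ab1 to -0.23, Hspa1a to -0.51, Hspa8 to -0.13, Hspa9 to -0.20, Hspd1 to -0.86 and Hspe1 to -0.80; the median of all genes moved with it, to -1.36. The tissue difference of Hspa2, which was not called, turned to 0.26 without mouse 138, to 0.22 without its fat library alone and to 0.028 with the replicate block, and ranged from -0.16 to 0.26 with each mouse left out. The genotype difference of Hspa12a in fat, not called either, turned to 0.16 with limma voom, 0.08 without mouse 131 and 0.12 without mouse 137, with a range of -0.37 to 0.12 over the mice left out; the cause was not tested. With the mouse as a replicate block, 39 members were called higher, 17 lower and 0 by interaction, and among the named members only the call of Hspd1 was lost. No paired analysis was possible between genotypes within a tissue because the 2 genotypes share no mouse numbers. Of the other values of single results, 921 kept their direction and side of the threshold, 24 lost a call and 4 gained one. The planned description of protein motifs was not run. Depth limits Hspb3 in fat (29 counts) and Dnajc6 and Dnajb13 in muscle (18 and 5 counts).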
